A study of Mus musculus with 16 samples.

Results

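The chromatin around 7 genes of the HNF, FOXA and GATA families was examined in pancreatic islets of 8 mouse strains. The members were Hnf4a, Foxa1, Foxa2, Foxa3, Onecut1, Gata4 and Gata6, a list of gene names whose rule uses no signal value. Peaks of the 16 samples on chromosomes 1 to 19 that overlapped or touched were merged into 347712 regions, of which 37 overlapped the body of a member or the 3000 bases upstream of it. Of these 37 regions, 8 held a peak in all 16 samples, 21 in some of them and 8 in 1 sample.

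Accessibility was measured by ATAC-seq, in which a transposase inserts sequencing adapters into open chromatin. The strains were 129S1_SvImJ (129), A_J (AJ), C57BL/6J (B6), CAST_EiJ (CAST), NOD_ShiLtJ (NOD), NZO_HlLtJ (NZO), PWK_PhJ (PWK) and WSB_EiJ (WSB), the founders of the Diversity Outbred (DO) mice, and each gave 1 female and 1 male sample of 50 islets. No treatment or transgene is named in the labels, which also give neither the age of the mice nor the number of mice behind a sample. With 1 sample per sex and strain, p-values measure the spread between these samples. CAST, PWK and WSB are wild-derived strains, and the other 5 are classical inbred strains.

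The HNF, FOXA and GATA factors are a network of DNA-binding proteins shared by liver, gut and pancreas. HNF4A is an orphan nuclear receptor whose gene has a promoter used in adult liver and a separate one, P2, used in islets, and loss of 1 human copy causes a monogenic diabetes. FOXA1, FOXA2 and FOXA3 are forkhead proteins that can bind closed chromatin and open it. ONECUT1, also called HNF6, acts in pancreatic progenitors upstream of the endocrine lineage and is low in mature beta cells. GATA4 and GATA6 are zinc-finger proteins needed to form the pancreas, and GATA4 is later kept mainly in acinar cells.

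The sequences that carry the results are the windows upstream of starts that were accessible or not, and the windows around the summits of peaks that differed or were shared. They were read from the RefSeq GRCm38.p6 reference, the assembly of mm10, on the strand of the gene from 5′ to 3′. Capitals mark letters of a searched motif. The first Hnf4a window (chr2:163506608-163506807) lies upstream of the start whose region had a peak in all samples. It holds the ONECUT letters ATCAAT with the first base at −10 from the start. The second window (chr2:163546987-163547186) lies upstream of a start without a peak and holds none of the searched motifs.
Hnf4a upstream of 163506808: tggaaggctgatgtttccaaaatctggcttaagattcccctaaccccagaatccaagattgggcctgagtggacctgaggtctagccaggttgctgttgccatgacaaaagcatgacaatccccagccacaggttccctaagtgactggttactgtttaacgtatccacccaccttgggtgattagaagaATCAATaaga
Hnf4a upstream of 163547187: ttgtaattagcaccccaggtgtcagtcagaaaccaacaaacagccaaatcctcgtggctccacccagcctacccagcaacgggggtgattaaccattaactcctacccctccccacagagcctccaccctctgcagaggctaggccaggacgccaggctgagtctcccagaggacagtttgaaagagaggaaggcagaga
For Foxa1, the window upstream of the coding start (chr12:57546122-57546321) holds the FOXA letters GTAAACA at −131. For Foxa2, the window centred on the summit shared by most samples (chr2:148046266-148046466), inside an intron, held none of the searched motifs.
Foxa1 upstream of 57546121: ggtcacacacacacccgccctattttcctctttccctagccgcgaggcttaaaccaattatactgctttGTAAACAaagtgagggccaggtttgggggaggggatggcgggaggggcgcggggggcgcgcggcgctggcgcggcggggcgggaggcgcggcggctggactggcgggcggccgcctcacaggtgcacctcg
Foxa2 summit window: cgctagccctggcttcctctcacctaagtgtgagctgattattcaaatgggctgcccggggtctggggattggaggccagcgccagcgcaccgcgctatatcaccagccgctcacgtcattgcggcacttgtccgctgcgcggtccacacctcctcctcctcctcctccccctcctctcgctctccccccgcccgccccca
For Onecut1, the windows lie around the summits of region 3 (chr9:74867920-74868120) and region 4 (chr9:74871063-74871263), both of which had a peak in all samples. Both hold the letters CTAGTGG of a CTCF motif, which was added to the search after these letters had been read, and region 4 also holds the ONECUT letters ATTGAT.
Onecut1 region 3 summit window: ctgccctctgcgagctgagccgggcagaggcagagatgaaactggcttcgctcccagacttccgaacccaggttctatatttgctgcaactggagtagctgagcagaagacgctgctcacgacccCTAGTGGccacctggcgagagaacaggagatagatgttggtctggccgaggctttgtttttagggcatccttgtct
Onecut1 region 4 summit window: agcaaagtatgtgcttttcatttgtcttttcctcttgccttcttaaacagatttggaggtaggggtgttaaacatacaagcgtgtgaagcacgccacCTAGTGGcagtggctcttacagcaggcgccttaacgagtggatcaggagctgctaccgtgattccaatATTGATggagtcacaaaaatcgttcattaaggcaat
For Gata4, the windows are the intronic summit of region 2 (chr14:63256005-63256205), with the GATA letters TTATCT, and the bases upstream of the start in region 3 (chr14:63245272-63245471), with the HNF4 letters TGGACTTTG.
Gata4 region 2 summit window: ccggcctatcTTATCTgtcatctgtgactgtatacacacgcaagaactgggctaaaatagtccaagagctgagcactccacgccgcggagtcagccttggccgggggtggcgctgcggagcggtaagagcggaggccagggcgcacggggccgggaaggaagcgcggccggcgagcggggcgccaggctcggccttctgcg
Gata4 upstream of 63245271: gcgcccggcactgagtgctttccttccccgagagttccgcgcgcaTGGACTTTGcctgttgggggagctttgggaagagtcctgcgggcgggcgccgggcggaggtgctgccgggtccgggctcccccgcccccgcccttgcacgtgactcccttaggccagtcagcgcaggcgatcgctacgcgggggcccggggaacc

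The motifs were searched on both strands by exact letters, so a match is a description of the reference and not a binding site. The HNF4 letters CAAAGTCCA were found in 0.520% of 201-base summit windows of the 40940 regions shared by all samples and in 0.321% of all 52065 promoter windows of 200 bases. For the FOXA letters TGTTTAC these shares were 6.31% and 2.11%, and for the GATA letters AGATAA they were 8.38% and 6.68%. The ONECUT letters ATTGAT were in 5.99% of summit windows and 4.44% of promoters, and the CTCF letters CCACTAG in 5.79% and 1.79%. The ONECUT match upstream of Hnf4a shares no letter with the GATA letters that begin 3 bases before the same start. The Foxa2 window had a GC content of 66.2%, against a median of 49.8% over all summit windows.

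The sample lists held 77887 to 167051 peaks, and the median summit signal over the 40940 shared regions ran from 32 to 136, so each signal was divided by that sample median and is called the scaled signal. Read depth is not part of the lists and no counting interval can be given. The 6 beta cell marker genes had a peak at their start in all 16 samples, as did the alpha cell genes Gcg and Irx2, while none of 8 acinar genes had one in any sample. The remaining alpha cell gene of the list, Irx1, had a start peak in 15 samples, all but the NOD male, at a mean of 0.395. Of the delta cell genes, Sst had no start peak in any sample and Hhex had one in 10 samples, at up to 1.26 in the CAST male. Of 6 duct genes, Cftr and Muc1 had a start peak in all samples, and the summed scaled signal of the list ran from 1.46 in the B6 male to 5.0 in the NZO male. Krt19 and Sox9 had one in the NZO male alone, which also had the highest leukocyte sum (1.07, lowest 0). In whole islets, fewer cells of a type and less open chromatin per cell cannot be told apart.

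Most of the genes had open chromatin at a coding start, and the 2 exceptions were Onecut1 and Gata4. Regions at the starts of Hnf4a, Foxa1, Foxa2, Foxa3 and Gata6 were called in all 16 samples, the Onecut1 start region in 14 and the best Gata4 start region in 4. Across all coding genes of the annotation, 52.1% had a start region called in all 16 samples and 69.1% in at least 1. Mean scaled signal placed Hnf4a at the 15.8th percentile of the 10789 genes called in all 16, Gata6 at 53.9, Foxa1 at 54.0, Foxa2 at 54.1 and Foxa3 at 75.9. The Foxa3 region also holds starts of another gene, Sympk, so its rank cannot be assigned to Foxa3 alone. The mean over samples, with 0 where no peak was listed, was 0.425 at the Onecut1 start and 0.093 at the Gata4 start. The heat map of all regions by sample gives every value.

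**Figure D1:**
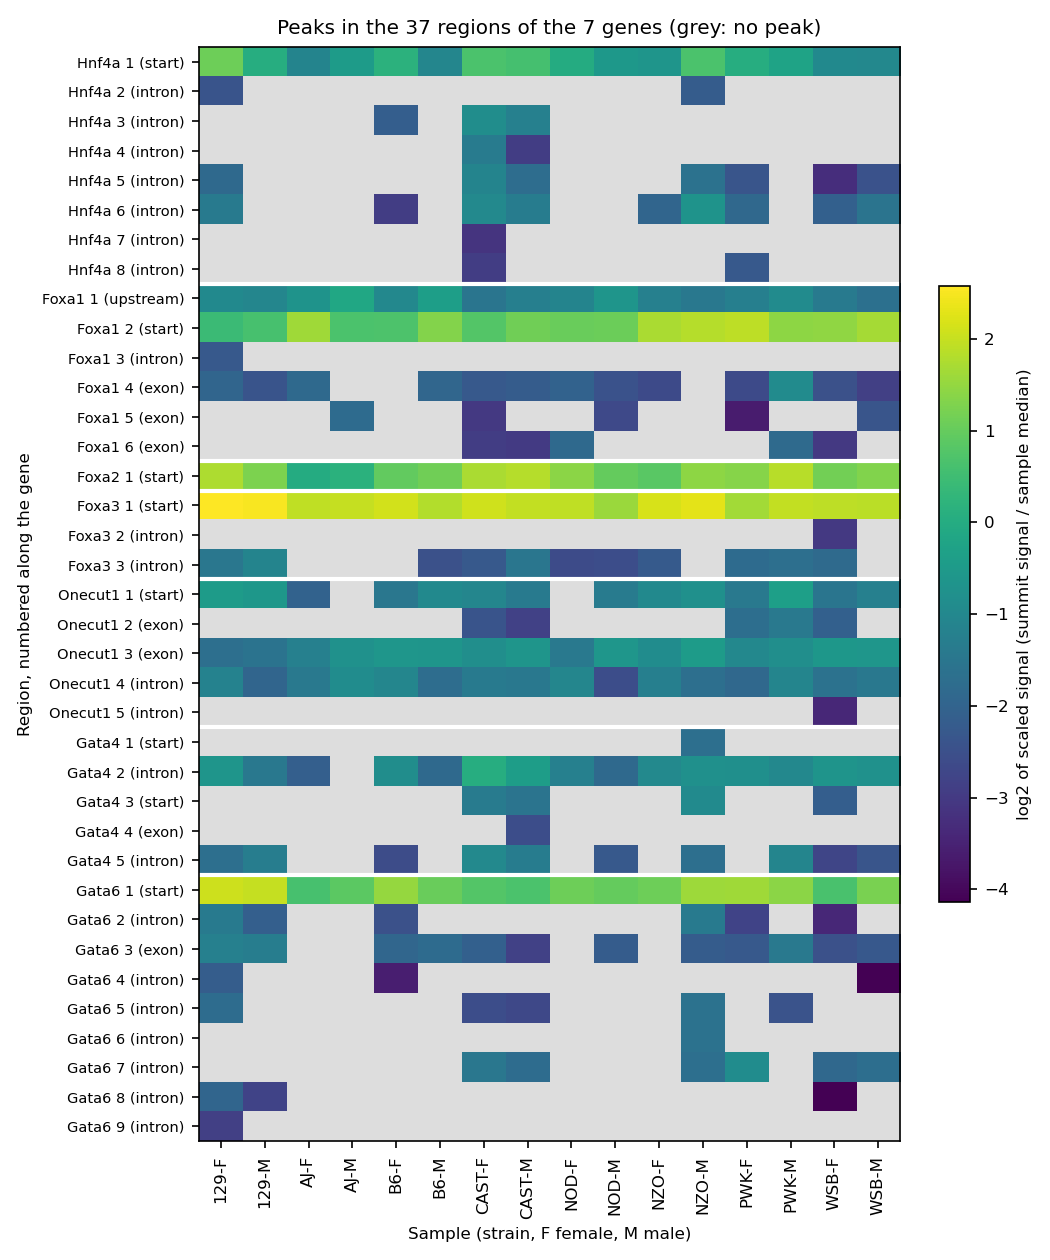
Scaled signal (log2 of summit signal over the sample median, colour) in the 37 regions of the 7 genes (rows, numbered along each gene, with the annotated feature) across the 16 samples (columns, F female, M male). Grey marks a sample without a peak, and the 8 rows without grey are the regions called in all 16 samples. They are brightest at the Foxa3 start region, which also holds starts of Sympk.

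A region around a member was called in more samples than the typical region, with a median of 5 samples against 2. Of the 37 member regions, 8 (21.6%) were called in all 16 samples, where the share over all regions was 11.8%. A further 8 (21.6%) were called in 1 sample, against 46.4% of all regions. Only Hnf4a region 4 was called in both samples of 1 strain and in no other, which was the case for 4.40% of all regions. The 29 regions not called in every sample lay in introns (20), in exons away from a coding start (6) or over a coding start (3), and their highest scaled signal was 1.04, in Gata4 region 2. Of all 37, 17 overlapped a peak in at least 1 of the lists that the authors made by irreproducible discovery rate (IDR) across the female and male of a strain, and 4 overlapped one in all 8 strains.

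Hnf4a (mm10 chr2:163506808-163572910, plus strand) was open at its first coding start, the islet promoter P2, and had no peak at its other 3 coding starts. Its region 1 (chr2:163506471-163507674) holds the start at 163506808 and was called in all 16 samples, with summits between −96 and −28 bases from it. A peak covered the base of this start itself in 15 samples. The starts at 163547187, 163547188 and 163550083, which include the promoter used in liver, were overlapped by no peak of any sample, and the nearest region lay 7388, 7389 and 5517 bases away. A signal under the calling threshold of the authors would not appear in the lists. The first sequence shown for Hnf4a is thus upstream of an accessible start and the other upstream of one with no called peak.

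**Figure D2:**
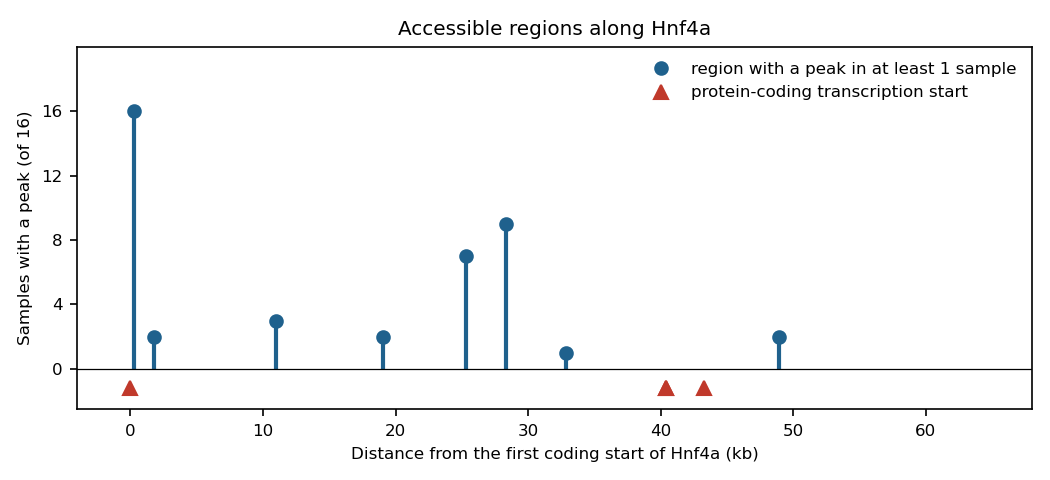
Number of samples with a peak (vertical axis, of 16) in each of the 8 regions along Hnf4a, by distance from its first coding start (horizontal axis, kb), with the coding starts as triangles. The region at the first start was called in all 16 samples and no region lies at the later starts.

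No strain passed the test at the Hnf4a start with all samples and centred values, where the 129 and CAST means were the highest. The scaled signal of region 1 was, female then male, 2.12 and 1.03 in 129, 0.462 and 0.727 in AJ, 1.12 and 0.482 in B6, 1.59 and 1.5 in CAST, 0.988 and 0.683 in NOD, 0.642 and 1.60 in NZO, 1.03 and 0.844 in PWK, and 0.519 and 0.5 in WSB. The order of strain means was 129, CAST, NZO, PWK, NOD, B6, AJ and WSB, and the samples of each of the 7 neighbouring pairs in it overlapped. The limma strain effect had an adjusted p of 0.0867. CAST stood 0.91 ± 0.35 (SE, log2) above the mean of the other 7 strains with an adjusted p of 0.136, and WSB fell short of it with −0.90 ± 0.35 and an adjusted p of 0.137. The strain effect passed without the NZO female (adjusted p = 0.0099), with WSB then lower, without the NZO male (0.0183), with 129 and CAST then higher, and without centring (0.0116), with CAST then higher.

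The other 7 Hnf4a regions were intronic, weaker than the start and called in 1 to 9 samples. Regions 5 (chr2:163532000-163532257) and 6 (chr2:163535000-163535344) were called in 7 and 9 samples. Region 6 reached 0.618 in the NZO male, 0.509 and 0.397 in CAST and 0.379 in the 129 female, while AJ and NOD had no peak there. CAST alone held region 4 (chr2:163525766-163525904), at 0.396 and 0.132. CAST was also the only strain with both samples in region 3 (chr2:163517540-163518024), at 0.557 and 0.434, where the B6 female had 0.226. Regions 1 to 7, the start included, also lie in the gene Hnf4aos, so a peak there cannot be assigned to 1 of the genes.

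Among the forkhead genes, the start region of Foxa3, which also holds starts of Sympk, had the strongest signal, and Foxa2 the clearest strain difference. The start regions of Foxa1, Foxa2 and Foxa3 had mean scaled signals of 2.43, 2.43 and 4.13 over the 16 samples. Foxa2 takes part in insulin secretion in mature beta cells. The plot of the shared regions by strain shows each sample.

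**Figure D3:**
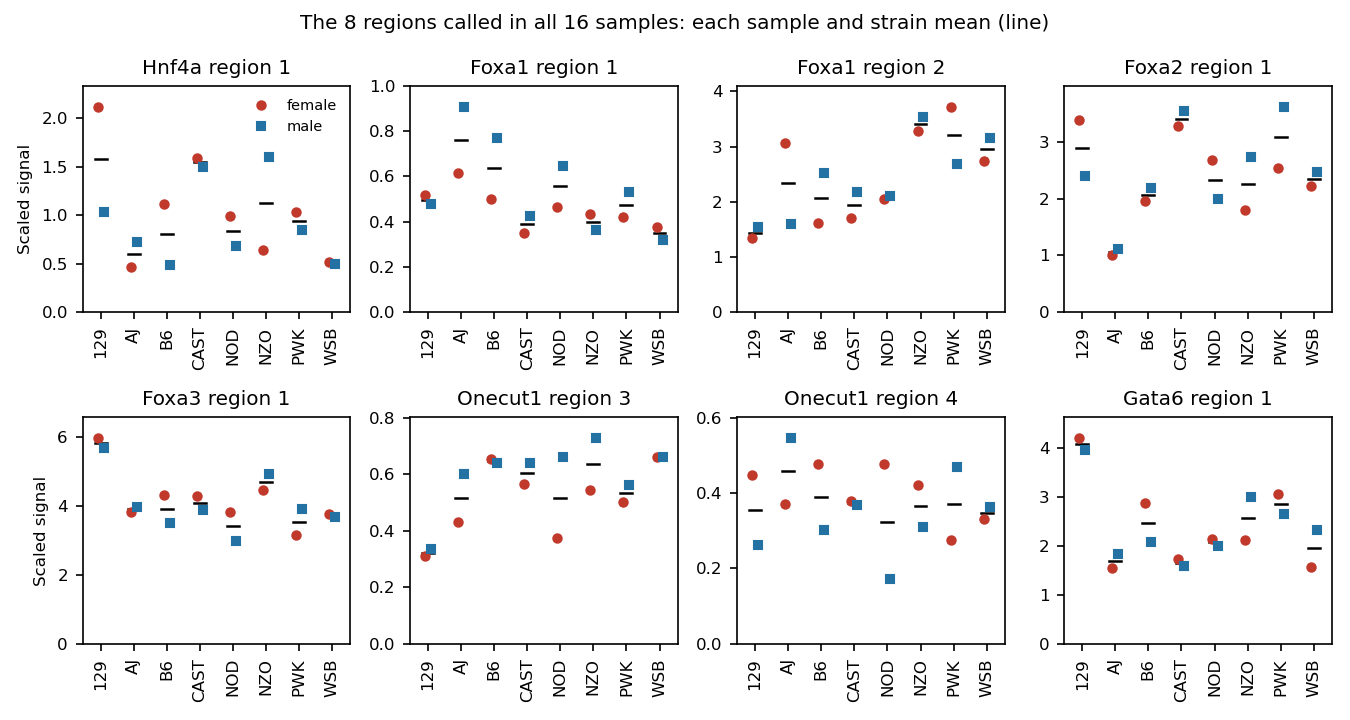
Scaled signal (vertical axes, each from 0) of the 8 regions called in all 16 samples, by strain (horizontal axes); circles are females, squares males and lines the mean of the pair. In the Foxa2 panel the AJ pair (1.00 and 1.11) lies under all other samples (1.80 to 3.62), and in the Gata6 panel the 129 pair (4.21 and 3.96) lies above them.

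Foxa2 (chr2:148042877-148046969, minus strand) lay in a single broad region (chr2:148043200-148049275) in which AJ was lower than the other strains. The scaled signal was 1.00 and 1.11 in AJ, 3.38 and 2.39 in 129, 1.96 and 2.18 in B6, 3.28 and 3.54 in CAST, 2.67 and 1.99 in NOD, 1.80 and 2.73 in NZO, 2.55 and 3.62 in PWK, and 2.22 and 2.47 in WSB, female then male. Both AJ samples were under all 14 others. The value of the AJ male came from a peak upstream of the first start, with a signal of 61 against 60 over the starts. In every other sample the summit used lay inside the gene. The limma fit gave a strain effect with an adjusted p of 0.0114, and AJ differed from the mean of the other 7 strains by −1.27 ± 0.22 (SE, log2, adjusted p = 0.0035). Between neighbouring strain means, only B6 and AJ were separated without overlap. The lists hold a second value per peak, a mean signal, of which the sources used here do not say what it averages. It was 86.8 and 83.9 at the start peaks of the AJ samples, above their summit signals of 65 and 60. In all 14 other samples the mean signal was under the summit signal. The gap was smallest in the NZO female (145.5 against 146) and largest in the CAST male (246.4 against 482). With the mean signal in place of the summit signal the AJ difference was −0.49 with an adjusted p of 0.112. The limma strain effect did not pass with it either (adjusted p = 0.259). The strain effect was lost without the AJ female (adjusted p = 0.0711) or the AJ male (0.0633), while the AJ difference was −1.24 (adjusted p = 0.0405) and −1.31 (0.0336). AJ was then 1 sample, assumed to vary like the other strains.

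The Foxa2 difference lay in the peak over the starts, in a comparison of the 2 main peaks that was chosen after their values were seen. Over the coding starts the AJ samples had 1.00 and 1.09, against 1.80 to 3.62 (median 2.51) in the 14 other samples. At the peak upstream of the first start AJ had 0.938 and 1.11, inside the range of 0.768 to 1.69 (median 1.15) of the 13 other samples with a separate upstream peak. The ratio of the start peak to the upstream peak was 1.07 and 0.984 in AJ and 1.54 to 2.62 in the others. The summit of the start peak stood 603 bases inside the gene, at the centre of the Foxa2 window printed above, in 13 of the 16 samples, and in the AJ female it stood at 110. No test is given for this split of the region.

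**Figure D4:**
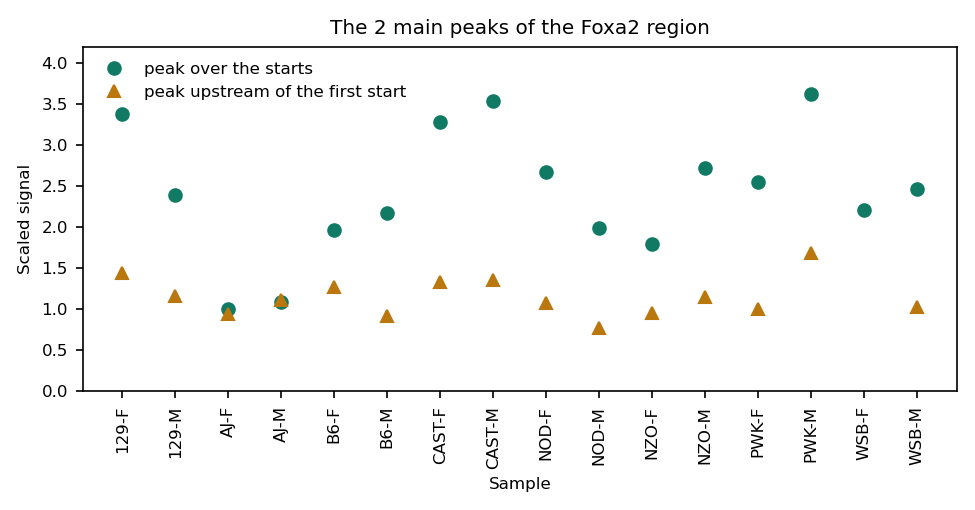
Scaled signal (vertical axis) of the peak over the coding starts of Foxa2 (circles) and of the peak upstream of the first start (triangles) in each of the 16 samples (horizontal axis). The circles of the AJ samples (1.00 and 1.09) are the lowest, while their triangles (0.938 and 1.11) lie among those of the other strains; the WSB female had 1 peak over both.

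Foxa1 (chr12:57540628-57546916, minus strand) had a strong start and a weaker upstream region, and neither passed the strain test. Region 2 (chr12:57544747-57547310) holds the coding start at 57546121, with summits at −671 to −582 bases from it. Its signal ran from 1.34 in the 129 female to 3.73 in the PWK female, and the limma strain effect had an adjusted p of 0.0686. The 129 pair, at 1.34 and 1.54, was under all other samples, with a difference of −0.78 ± 0.25 (adjusted p = 0.0728). The upstream region 1 (chr12:57548117-57550776) was highest in the AJ male (0.909) and lowest in the WSB male (0.318), with an adjusted strain p of 0.0557. AJ stood there at +0.69 ± 0.21 with an adjusted p of 0.0595. The strain effect of region 2 passed without the AJ female (adjusted p = 0.0283) or male (0.0332), and that of region 1 without the NZO female (0.0212) or male (0.0402). Region 4 (chr12:57542600-57543999), over an exon, was called in 13 samples at 0.136 to 0.531.

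Foxa3 (chr7:19013284-19023538, minus strand) had the highest signal of the members in 15 of the 16 samples, the exception being the PWK female, where the Foxa1 start was higher. Region 1 (chr7:19022060-19025848) ran from 2.98 in the NOD male to 5.97 in the 129 female, and the other 129 sample had 5.68. The 129 difference was 0.59 ± 0.18 with an adjusted p of 0.0608, and the strain effect had an adjusted p of 0.141. The 129 difference passed without either NZO sample or without the PWK male. Its summits lay at −803 to −694 bases from the Foxa3 start, near coding starts of Sympk, which encodes a protein of mRNA 3′ end processing and is read from the opposite strand starting at −839. The signal thus cannot be assigned to Foxa3 alone. The intronic region 3 (chr7:19019776-19020742) was called in 11 samples, from 0.163 in the NOD female to 0.464 in the 129 male.

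Onecut1 (chr9:74861921-74891781, plus strand) had a weak start and its most often called peaks inside the gene. All 5 of its regions also lie in the gene Gm20649, so their peaks cannot be assigned to Onecut1 alone. The start region 1 (chr9:74861505-74862504) ran from 0.246 in the AJ female to 0.781 in the PWK male where called, and the AJ male and the NOD female had no peak. A peak covered the base of the start itself in 11 samples. Regions 3 (chr9:74866552-74868546) and 4 (chr9:74870776-74871399) were called in all 16. Region 4, with CTCF and ONECUT letters in its window, ran from 0.171 in the NOD male to 0.545 in the AJ male, and had the highest adjusted strain p of the tested regions at 0.922.

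At Onecut1 region 3 the 129 strain was lower than the rest. The scaled signal was 0.310 and 0.333 in 129, 0.431 and 0.600 in AJ, 0.655 and 0.639 in B6, 0.566 and 0.640 in CAST, 0.372 and 0.659 in NOD, 0.543 and 0.727 in NZO, 0.5 and 0.562 in PWK, and 0.660 and 0.659 in WSB. Both 129 samples were under the 14 others, of which the NOD female was the nearest. The summit used lay 4953 bases from the start in the NZO male and 6513 in the AJ female. In the other samples it lay at 6026 to 6152, so the values do not all come from the same site. In limma, 129 differed from the mean of the other 7 by −0.81 ± 0.19 (SE, log2, adjusted p = 0.0216), while the test of any strain effect had an adjusted p of 0.0654, which was 0.0389 without the NZO female. The 129 call was lost without either 129 sample, without the CAST female (adjusted p = 0.0528) and with the deposited mean signal, where the difference was −0.19.

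Gata4 (chr14:63198922-63271692, minus strand) was the member with the least open starts, and its most often called region was intronic. The start region 3 (chr14:63245122-63245575), with HNF4 letters in the window printed above, was called at 0.396 and 0.338 in the CAST pair, 0.527 in the NZO male and 0.226 in the WSB female. The start region 1 (chr14:63271605-63271711) was called in the NZO male alone, at 0.309. The starts at 63213607 and 63271124 had no peak in any sample. The NZO male is also the sample with the highest sums over the duct and leukocyte lists, with Krt19 at 0.691 and Sox9 at 0.655 and all 6 duct genes called. The duct sum was 5.0 in this sample, 2.35 and 2.39 in the CAST pair and 1.90 in the WSB female, and 1.46 to 3.4 in the samples without Gata4 region 3. The delta list, in which Hhex alone had peaks, was at 1.26 in the CAST male, 1.04 in the NZO male, 1.0 in the CAST female and 0.236 in the WSB female, and at 0 to 0.360 in the samples without Gata4 region 3. The part of these cells in the Gata4 peaks was not tested, and all 8 acinar genes were without a start peak in these samples too.

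The intronic Gata4 region 2 (chr14:63255691-63256281) was called in every sample but the AJ male. It was highest in CAST, at 1.04 and 0.757, and lowest in the AJ female at 0.231, among the samples with a peak. In a fit of the regions called in at least 12 samples, with 0 for a missing peak, AJ differed from the other strains by −3.01 on the log2 scale (adjusted p = 0.0235), while the strain effect had an adjusted p of 0.104. The size of that difference depends on the 0 of the AJ male. Region 5 (chr14:63207093-63207399), also intronic, was called in 10 samples at 0.151 to 0.509.

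Gata6 (chr18:11052064-11085635, plus strand) was open around its starts in all samples, most in 129. Region 1 (chr18:11049200-11056539) was 4.21 and 3.96 in 129, 1.54 and 1.84 in AJ, 2.87 and 2.07 in B6, 1.73 and 1.58 in CAST, 2.14 and 2.00 in NOD, 2.12 and 3.00 in NZO, 3.06 and 2.66 in PWK, and 1.58 and 2.33 in WSB. Both 129 samples were above all 14 others. The limma strain effect had an adjusted p of 0.0258, and 129 stood 0.94 ± 0.21 (SE, log2) above the mean of the other 7 (adjusted p = 0.0169). The limma strain effect did not pass without centring (adjusted p = 0.0861) or in the fit of regions called in at least 12 samples (0.0782). The 129 call was lost without the 129 female (adjusted p = 0.112) or male (0.0635), without centring (+0.68, adjusted p = 0.129) and with the deposited mean signal (+0.18). The strain effect was lost without either 129 sample, either CAST sample, the AJ female or the NOD male, with adjusted p between 0.0517 and 0.0911.

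The Gata6 difference moved with a shift over its whole chromosome. Over all 1454 shared regions of chromosome 18, the median strain difference was +0.271 in 129, −0.275 in AJ, +0.221 in B6, −0.389 in CAST and +0.216 in PWK, whereas on the 16 chromosomes other than 11, 18 and 19 no strain median exceeded 0.186 in size. With values centred within each chromosome, an alternative added after these shifts were seen, the 129 difference at Gata6 was +0.76 with an adjusted p of 0.0503, and the strain effect had an adjusted p of 0.161. The AJ difference at Foxa2 was then −1.21 (adjusted p = 0.00424) and the 129 difference at Onecut1 region 3 was −0.89 (adjusted p = 0.0131). Gata6 region 1 also holds starts of the divergent noncoding gene 1010001N08Rik, and its summits, 452 to 503 bases inside Gata6, lie beside them. Signal there cannot be assigned to 1 of the genes.

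The other Gata6 regions were weak and lay inside the gene. Region 3 (chr18:11058911-11059820), over an exon of a noncoding transcript, was called in 12 samples and was highest in 129, at 0.431 and 0.406. Region 7 (chr18:11074532-11075040) was called in both samples of CAST (0.358 and 0.294) and WSB (0.274 and 0.307), in the PWK female (0.548) and in the NZO male (0.309). Region 8 was called at 0.259 and 0.145 in the 129 pair and at 0.0566, the lowest scaled signal listed for any member, in the WSB female. Region 6 was called in the NZO male alone, at 0.327, the sample that stood apart in duct and leukocyte genes.

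Across the 8 regions called in all samples, strain effects were no more frequent than elsewhere. The limma strain effect passed an adjusted p of 0.05 in 2 of 8 (25%), Foxa2 and Gata6 region 1, against 35.7% of the 40940 regions tested. Single strains were set apart in 3 of the 64 pairs of region and strain. One pair was higher (129 at Gata6, background 3.18% of pairs) and 2 were lower (AJ at Foxa2 and 129 at Onecut1 region 3, background 4.18%). Leaving out 1 sample moved the number of regions with a strain effect to between 1 and 5, the latter without the NZO female. The median of the largest strain difference in a region was 0.80 (log2) over the members and 0.73 over all regions. The share of member regions is near the background and is no result about these genes.

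**Figure D5:**
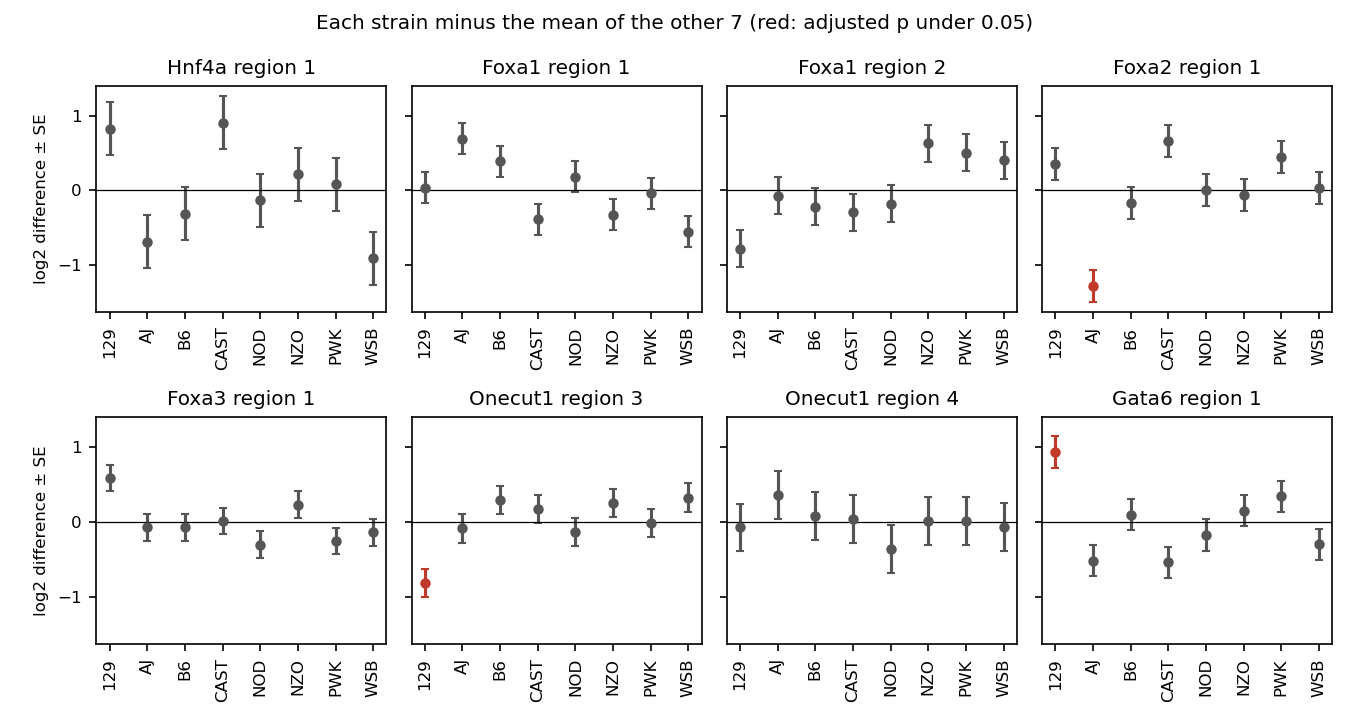
Difference of each strain from the mean of the other 7 (vertical axes, log2 scaled signal, points with SE bars from limma) in the 8 regions called in all 16 samples, by strain (horizontal axes). Red marks an adjusted p under 0.05, which 3 of the 64 points reach: AJ at Foxa2 (−1.27), 129 at Onecut1 region 3 (−0.81) and 129 at Gata6 (0.94), the last of which lost its call with centring within each chromosome.

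No member region passed the test for a difference between females and males. The limma sex effect passed in 0 of 8 regions, with a background of 0% of the 40940 regions, and at an unadjusted p under 0.05 the counts were 0 members and 1621 of all regions. The lowest member p was 0.0578 unadjusted, at Onecut1 region 3, where females were at −0.26 ± 0.13 (SE, log2) relative to males. Females were higher in 3 of the 8 regions, and the median sex difference was −0.03 over the members and −0.01 over all regions. The difference between classical and wild-derived strains in the sex effect had a lowest unadjusted p of 0.125 over the 8 regions by a two-sided exact permutation test.

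No shared member region passed the test between wild-derived and classical strains. The class effect passed in 0 of 8 regions, against 0.0342% of all regions (14 of 40940), and at an unadjusted p under 0.05 in 0 members and 4960 of all regions. The lowest unadjusted member p was 0.0851, for Foxa1 region 1 with −0.46 ± 0.24 (wild-derived minus classical, log2), and the widest gap upward was 0.53 ± 0.30 at Foxa2. Wild-derived strains were lower in 4 of the 8, with a median difference of 0.02 over the members and −0.05 over all regions.

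The number of member regions called was highest in the CAST pair and lowest in the AJ pair. Females and males had, in that order, 23 and 16 called regions in 129, 11 and 9 in AJ, 16 and 13 in B6, 26 and 24 in CAST, 12 and 15 in NOD, 13 and 21 in NZO, 20 and 17 in PWK, and 24 and 18 in WSB. Of all regions, 24.0% and 24.5% were called in 129, 25.2% and 20.5% in AJ, and 31.2% and 28.8% in B6. These shares were 38.7% and 36.7% in CAST, 23.4% and 24.7% in NOD, and 27.9% and 37.9% in NZO. In PWK they were 32.3% and 39.0%, and in WSB 46.3% and 35.7%. The share over all regions was thus highest in the WSB female and lowest in the AJ male. The strain means averaged 21.5 ± 3.28 (SD, n = 3) in wild-derived and 14.9 ± 3.60 (SD, n = 5) in classical strains, a difference of 6.6 regions that is given without a test. Over all regions, too, wild-derived samples had 32.3% to 46.3% of them called and classical samples 20.5% to 37.9%. With the same number of strongest peaks (77887) from every sample the difference was 3.53, with means of 15.3 and 11.8. With only the peaks at or above the median −log10 p of each sample the difference was 5.9, with means of 13 and 7.1. The part of the number of peaks in this difference was not tested.

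Strain effects were also counted around related genes and known targets, in lists chosen by gene name. A list of 11 family members and partners, among them Hnf4g, Onecut2, Gata3 and the GATA cofactors Zfpm1 and Zfpm2, had 276 regions, of which 22 were called in all 16 samples and 6 (27.3%) had a strain effect in limma, under the 35.7% of all regions. Of the 176 pairs of these regions with a strain, 4 were higher and 6 lower, where 3.18% and 4.18% of all pairs were. No region passed the sex or class test. With centring within each chromosome 8 of the 22 had a strain effect. The largest difference was in a region of Zfpm2 (chr15:40838702-40839354), at −2.18 ± 0.25 in CAST.

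Hnf4g, the paralog of Hnf4a, had the strongest start of that list, called in all 16 samples at a mean of 8.88 (6.21 to 11.5), against 0.99 for Hnf4a. A further Hnf4g region (chr3:3563800-3564599) was lower in CAST by −1.56 ± 0.28 (adjusted p = 0.00494) and higher in AJ by 0.98 ± 0.28 (adjusted p = 0.0483). The starts of Onecut2 (2.33), Gata3 (2.97), Ppargc1a (6.65), Zfpm1 (1.92) and Pcbd1 (1.93) were also called in all samples. Gata2 had a start peak in 2 samples, and Onecut3, Gata5 and Nr0b2 in 0.

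The 8 target genes of these factors had 61 regions, of which 15 were called in all 16 samples and 5 (33.3%) had a strain effect, near the 35.7% of all regions. Of 120 pairs of region and strain, 4 were higher and 6 lower (3.18% and 4.18% of all pairs), with 0 regions passing for sex or class. Starts of Pdx1, Slc2a2, Ttr, Gcg and the shared start region of Abcc8 and Kcnj11, the subunits of the beta cell potassium channel, were called in all samples, that of Pklr in 15 and that of Neurog3 in 0. Slc2a2, the glucose transporter of the beta cell, was lower in NOD in 1 region by −1.05 ± 0.26 (adjusted p = 0.0298). An Abcc8 region (chr7:46145216-46147875) was at −1.39 ± 0.19 in PWK (adjusted p = 0.00101) and at 0.86 ± 0.19 in CAST (adjusted p = 0.0179). Ttr, which encodes transthyretin, had a strain effect in both of its tested regions and lies on chromosome 18, and with centring within each chromosome it kept it in 1 and the list in 3 of 15.

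The strain pattern at the 5 starts called in all samples was compared with that at other genes by Pearson's r over the 8 strain means, as a description of 9688 candidate start regions. The start region most like that of Hnf4a was at Crtc1 (r = 0.987), followed by Slbp (0.985) and Klhl22 (0.983). For Foxa2 these were Tmem150c (0.978), Plekhm2 (0.970) and Scnn1b (0.965), and for Foxa3 the shared start of Cep89 and Faap24 (0.981), Hivep1 (0.959) and Mcfd2 (0.959). For Foxa1 they were a long merged region with starts of Mroh2a and Ugt1a1 (chr1:88211410-88270282, 0.946), Limd1 (0.887) and Thsd7a (0.873). The value of that long region is its highest summit, which need not lie at either start. For Gata6 they were Cep120 (0.982), Rbm22 (0.981) and Snx2 (0.979), all 3 of which lie on chromosome 18 with Gata6. With 8 points and this many candidates, values of this size carry no p.

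The strain patterns of the members were also set against each other, with no choice for a high r. The highest r over the 8 strain means was 0.68 between Foxa2 and Hnf4a, followed by 0.62 between Foxa3 and Gata6 and 0.58 between Foxa3 and Hnf4a. The Foxa1 start had an r of −0.44 with Hnf4a, −0.44 with Foxa3, −0.23 with Gata6 and −0.07 with Foxa2. No p is given for these values. Foxa2 and Foxa3, of the same family, had an r of 0.15. All points share the library and the scaling of each sample.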

How the data were processed

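ATAC-seq peaks of 16 islet samples (8 strains, 1 female and 1 male each) were analysed. According to the study's methods and processing notes, reads were trimmed with cutadapt 2.0 and those of all strains aligned to mm10 with Bowtie2 2.3.4.1. The authors filtered them and removed duplicates with SAMtools and Picard 2.9.2, and peaks of each sample came from MOSAiCS with an FDR of 0.05. Any shift for the transposase cut is not given in the sources used here. The deposited signal is a whole number at the summit of a peak, with a mean signal beside it, and was not scaled to depth. The deposited significance is on a −log10 p scale, and strain lists carry the IDR as −log10, used at 0.05.

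Peaks on chromosomes 1 to 19 (1860467 in all) were merged where they overlapped or touched, and the highest summit in a region was the signal of the sample. Gene bodies and starts came from GENCODE M21. A sample without a peak in a region was given 0. Regions called in all 16 samples (40940) were fitted with limma 3.58.1 in R 4.3.3, by strain and sex together, on log2(signal + 1) centred on the sample median, and p-values were adjusted by Benjamini-Hochberg over all regions and, for single strains against the other 7, over all pairs. The class fit compared wild-derived with classical strains on the 8 strain means, with female and male averaged and no sex term. The fits were also run on simulated data with known changes in some regions. Those data held no shifts over whole chromosomes, so the run gives no support for the calls made here. Groups came from the labels and classes from the study. Regions to be named were those at a start, the strongest of each member, others called in all 16 samples, and those that 1 strain alone held in both samples. Genes of similar pattern were the 3 highest by Pearson's r. Further regions were named with their values already in view.

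The members and lists were chosen with earlier results of these data known. The planned permutation test of the number of member regions called per strain was replaced by a description, since the members are a chosen list. Alternatives covered scaling, pseudocount, signal measure, filters, overlap, strain lists and single samples left out. Some genes of the lists are not reported here. Whether reads of strains far from B6 align less well at these regions was not tested.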

Additional observations from a re-analysis of the deposited data

Results flagged for a closer look

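Values that stood apart in groups of 8 samples of 1 sex were searched for in 36 groups of member values, with a gap test that flags about 5% of groups by chance. The first was the 129 female at Foxa3 region 1, at 5.97 among the females, where the next value was 4.47 and the lowest 3.15, a gap of 0.531 of the whole range. The 129 male had 5.68 there, so both samples of the strain were above all others.

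The second was the 129 male at Onecut1 region 3, at 0.333 among the males, where the next value was 0.562 and the highest 0.727, a gap of 0.582 of the range. The 129 female had 0.310. The number of flags (2) is close to the share that chance gives over 36 groups.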

How the results depend on the processing

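The number of the 8 tested member regions with a strain effect (2) was 4 without centring, 1 with the deposited mean signal, 1 among the 12 regions called in at least 12 samples, and 1 with centring within each chromosome, an alternative chosen after seeing the data. Leaving out 1 sample gave 1 to 5: 1 without either 129 or CAST sample, the AJ female or the NOD male, 5 without the NZO female and 4 without the NZO male. The member regions in which a strain was set apart (3, with 1 pair of region and strain each) were 0 with the deposited mean signal and 1 to 7 with 1 sample left out, with 1 without either 129 sample, 7 without the NZO female and 6, in 8 pairs, without the NZO male. Without centring they were 4, in 7 pairs. Sex and class effects were 0 in the members under every alternative run. The causes were not tested. The member regions (37) numbered 20 with peaks at or above the median −log10 p, 17 with the strain lists, and 35 to 38 with 1 sample left out. Those called in all 16 samples (8) were 5 at the median −log10 p, 1 where peaks had to cover at least 50% of a region, 4 with the strain lists, and 8 to 9 with 1 sample left out. The difference in called regions between wild-derived and classical strains (6.6) was 3.53 to 7.83 over its alternatives.

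The AJ difference at Foxa2 kept its direction and its call in 21 of 22 alternatives, the 129 difference at Onecut1 region 3 in 18 and the 129 difference at Gata6 in 17, and none turned its direction. The labels give no replicate numbers, so sex numbers the samples here. Strain and sex were both terms of the fit, so the sex effect was estimated within strains. With 1 sample per strain and sex, and no read depth in the lists, a missing peak cannot be told from a signal under the calling threshold.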
